A study of Homo sapiens with 22 samples.

Results

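Of the tagged luciferase reporters transfected as plasmids into 2 human lung cancer lines, 92 gave a high transcript level in A549 cells. In H520 cells their level was near or under that of the typical reporter. They were chosen by measured values. A tag had to have at least 100 counts in both libraries of input plasmid DNA, which 211385 of the 238017 listed tags had. The activity of a tag in an RNA library was log2 of its TPM (counts per M counts of that library) plus a pseudocount of 0.5, over its TPM in the H520 input plus 0.5. The median of the library over those 211385 tags was then subtracted, so that 0 is the typical reporter. Members had a mean activity of at least 4 over the 10 A549 RNA libraries and below 0.5 over the 10 H520 RNA libraries. The 92 tags are 0.0435% of the 211385. Because both lines' values chose them, the contrast between the lines is described below without a test.

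The study asked which DNA variants act in lung cancer susceptibility, and read the transcripts of each reporter by amplicon sequencing of its tag. A549 is a human lung adenocarcinoma line and H520 a human lung squamous cell carcinoma line, each an established line. Each line has 5 RNA libraries with vehicle (DMSO) and 5 with 10 µM benzo(a)pyrene (BaP), for 18 h in A549 and 42 h in H520. Within each treatment they are numbered as transfections 1 to 5. The labels do not say whether a number marks the same transfection in both treatments. Each line has 1 library of input DNA. All reporters share the luciferase plasmid, so every group measures plasmids and not the DNA in its chromosome. The input libraries are titled v1 for A549 and v2 for H520. Whether both lines received the same plasmid pool was not established here. The labels do not say whether the transfections of a group came from separate cultures, so a p-value measures the spread between these libraries, which may be technical. The exposure time differs between the lines and cannot be told apart from the line in any comparison of BaP responses. Which fragment or allele each tag marks was not analysed here. Several of the 92 tags may mark the same fragment, and the tags are not independent of each other.

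In a massively parallel reporter assay, a candidate regulatory DNA fragment is cloned beside a reporter gene, and the short tag in the transcript reports how much RNA that plasmid gave. Comparing RNA with plasmid DNA removes most of the difference in how often each plasmid is present. Lung adenocarcinoma and squamous carcinoma lines differ in the transcription factors they express, so the same plasmid can give different amounts of RNA in each. BaP is a combustion product found in tobacco smoke. It activates the aryl hydrocarbon receptor, a transcription factor that induces genes of xenobiotic metabolism.

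A deposited tag has 15 bases, of which the first 12 vary. The tags are synthetic and have no place in a genome. The tags below are shown 5′ to 3′ because the text returns to them: the 10 with the highest A549 activity, in falling order, then the 5 with the lowest H520 activity, from the lowest up. Capitals mark the 3 bases that all tags share.
A549 highest, 1: atccggtatcatGGC
A549 highest, 2: acgacctactgcGGC
A549 highest, 3: gctttagcgctgGGC
A549 highest, 4: agaccgttgattGGC
A549 highest, 5: agatcgtttagcGGC
A549 highest, 6: gcagcgtacgcaGGC
A549 highest, 7: gattagtcggagGGC
A549 highest, 8: gttgagatcctcGGC
A549 highest, 9: tacttaattggaGGC
A549 highest, 10: ctaaccagtcgcGGC
H520 lowest, 1: tactatgatttgGGC
H520 lowest, 2: tatagatactctGGC
H520 lowest, 3: ccgttattctcaGGC
H520 lowest, 4: tagaatcttgctGGC
H520 lowest, 5: tatagtcgattgGGC

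The A549 activities of the 92 tags lay close together. They ran from 4.11 to 6.10 on the log2 scale, with a median of 5.45 and quartiles of 5.13 and 5.68, and 76 of the 92 were at 5 or more. The highest linear activity, 68.8 times the library median, was 3.99 times the lowest, 17.2. In H520 the mean activities ran from -0.77 to 0.07 with a median of -0.31, and 90 of the 92 were below 0. With the H520 input as denominator for both lines, the difference between the lines had a median of 5.75 log2 units. It ran from 4.28 to 6.59.

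The label calls these reporters silent in H520, and the counts are narrower than that word. None of the 92 was at 0 in any RNA library, and the lowest count was 58 in an H520 library and 3039 in an A549 library. The H520 median activity equals 0.811 of the typical reporter with DMSO and 0.805 with BaP. The median member was thus read in H520 at somewhat less RNA per plasmid than the typical reporter of the pool, which itself need not be at 0. The typical reporter is the reference for every activity, and whether it is transcribed above background was not analysed here.

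The tags atccggtatcatGGC, acgacctactgcGGC and gctttagcgctgGGC had the highest A549 means, at 6.10, 6.09 and 6.02. The first was read at 241, 193, 187, 218 and 184 TPM in A549 transfections 1 to 5 with DMSO and at 224, 234, 186, 208 and 153 TPM with BaP. In H520 it was read at 1.87, 2.96, 2.43, 2.50 and 3.16 TPM with DMSO and at 2.94, 2.33, 2.56, 2.82 and 2.56 TPM with BaP, while the H520 input held 2.91 TPM. The lowest A549 library, at 153 TPM, was far above the highest H520 library, at 3.16 TPM, and the lines did not overlap.

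For acgacctactgcGGC the 5 DMSO libraries of A549 read 324, 280, 247, 288 and 249 TPM and the BaP libraries 323, 329, 237, 281 and 208 TPM. Its H520 readings came to 2.68, 3.27, 3.60, 3.77 and 4.01 TPM with DMSO and 3.40, 3.66, 3.56, 3.47 and 3.81 TPM with BaP, against 4.20 TPM in the H520 input. All 10 H520 values lay under the input level, and all 10 A549 values far above it. The median over all 211385 tags was also lower in H520 RNA, at 3.62 TPM, than in the H520 input, at 3.88 TPM. On the centred activity scale, acgacctactgcGGC ran from -0.48 to 0.03 in the H520 libraries. The tag gctttagcgctgGGC is more abundant, at 11.8 TPM in the H520 input. It gave 825, 702, 623, 700 and 627 TPM in A549 with DMSO and 792, 845, 585, 694 and 531 TPM with BaP. In H520 it gave 9.19, 8.89, 8.66, 8.87 and 9.29 TPM with DMSO and 8.65, 9.45, 8.95, 8.22 and 8.28 TPM with BaP.

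The other tags of the 10 highest had A549 means of 5.84 to 6.0 and SDs over the 10 A549 libraries of 0.164 to 0.216. Much of that spread is a shift shared by the set, described below, and the order of single tags was not tested. Their H520 means ran from -0.58 for agaccgttgattGGC and tacttaattggaGGC to -0.21 for gcagcgtacgcaGGC. Across the 92 tags, Pearson's r between the 2 mean activities was -0.09. The rule cut both means, so this value does not show how activities in the 2 lines relate. Both means share the H520 input as denominator, and tags are not independent replicates.

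At the low end in H520, tactatgatttgGGC had a mean activity of -0.77, or 0.588 of the typical reporter. It was read at 1.46, 1.64, 1.59, 1.53 and 1.44 TPM in H520 with DMSO and at 1.86, 1.59, 1.74, 1.39 and 1.5 TPM with BaP, all under the 3.24 TPM of the H520 input. The A549 libraries held 183, 145, 158, 190 and 140 TPM with DMSO and 158, 183, 143, 185 and 119 TPM with BaP. The tags tatagatactctGGC, ccgttattctcaGGC, tagaatcttgctGGC and tatagtcgattgGGC followed at -0.75, -0.74, -0.68 and -0.65 in H520. Their A549 means were 5.76, 5.46, 4.99 and 5.46, all inside the A549 range of the set. The mean of 5.76 was above the set's upper quartile of 5.68, and that of 4.99 below its lower quartile of 5.13.

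The most RNA in A549 came from ttaagtcggctgGGC, a tag named after its values were seen, with a mean of 844 TPM over the A549 libraries and 13.8 TPM over the H520 libraries. The least in either line came from aacgactactgcGGC, with 15.1 and 0.375 TPM. Among plasmids the first tag had 13186 counts in the A549 input and 5321 in the H520 input, and the second 287 and 101. The second has the fewest input counts of the set, with 70 to 120 counts in each H520 library with DMSO, and is also the tag with the highest H520 activity. Of the 92 tags, 80 had at least 500 counts in both inputs.

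Neither limit ran through a crowd of tags. The members nearest the A549 limit of 4 were acttcgggtcgtGGC at 4.11, aacgactactgcGGC at 4.36 and acgtaacttccgGGC at 4.39. The nearest tags outside it that met the H520 limit were attcgtaatggtGGC at 3.23, ctatagtatttcGGC at 3.12 and gtaccgtatattGGC at 3.08. An interval of 0.88 log2 units between 3.23 and 4.11 was thus empty, and only 7 tags with H520 activity below 0.5 had an A549 activity of 3 to 4. At the H520 limit of 0.5, the nearest members were aacgactactgcGGC at 0.07, ccgctcgtaacgGGC at 0.00 and cggaacttgctgGGC at -0.03. The nearest tags outside it that met the A549 limit were tatcgactacgcGGC at 0.75, gatcgtcgatgcGGC at 0.81 and agaattacgctaGGC at 0.83. No tag with A549 activity of at least 4 lay in the 0.68 log2 units between 0.07 and 0.75. The set is 27.4% of the 336 tags with A549 activity of at least 4, and the other 244 had H520 activities from 0.75 to 4.94.

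Which tags belong also varied little with the libraries used. The same 92 tags met both limits when the means were taken over DMSO libraries alone or over BaP libraries alone, and when any 1 transfection number was left out of both lines. These are parts of the libraries that chose the set, so this is a description and not an independent check. The member acttcgggtcgtGGC, nearest to the A549 limit, had activities of 4.36, 4.06, 3.88, 4.23 and 3.98 in A549 with DMSO and 4.25, 4.34, 3.94, 4.20 and 3.84 with BaP. Of these 10 values, 4 lie under 4, and its mean of 4.11 differs from the limit by less than the spread between libraries.

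In A549 the 92 tags rose and fell together from library to library. Their median activity was 5.68, 5.37, 5.30, 5.56 and 5.33 in transfections 1 to 5 with DMSO and 5.56, 5.65, 5.31, 5.55 and 5.11 with BaP. In DMSO transfection 1 and in BaP transfection 2, all 92 tags lay above their own mean over the 10 libraries. In DMSO transfection 5 and BaP transfections 3 and 5, 0 of the 92 did. The counts above the own mean in the remaining A549 libraries were 6 and 5 in DMSO transfections 2 and 3, 86 and 87 in transfection 4 with DMSO and BaP, and 81 in BaP transfection 1. No A549 library thus split the set evenly. In H520 between 39 and 51 of the 92 lay above their own mean in each library, and the library medians stayed between -0.33 and -0.28.

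As a share of all counts, the 92 tags took 2.71%, 2.27%, 2.13%, 2.43% and 2.04% of the A549 libraries with DMSO and 2.58%, 2.72%, 2.03%, 2.36% and 1.72% with BaP. They took 0.0388% to 0.0399% of the H520 libraries, 0.105% of the A549 input and 0.0530% of the H520 input. The order of the tags by activity was kept between A549 libraries, with Pearson's r over the 92 tags of 0.914 to 0.998 in the 45 pairs. In the 45 H520 pairs, where the tags span a narrower range at lower counts, it was 0.621 to 0.874. All pairs share the H520 input as denominator, which by itself makes such values correlate.

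The 244 tags that were strong in A549 and also above the typical reporter in H520 varied far more between A549 libraries. The SD of activity over the 10 A549 libraries ran from 0.160 to 0.255 for the 92 tags, with a median of 0.194. For the 244 tags it ran from 0.145 to 0.893 with a median of 0.762, and 10 of them were at or under the highest SD among the 92. All 211385 tags had a median SD of 0.103. The median activity of the 244 tags was 5.14, 4.26, 4.36, 5.30 and 5.70 in A549 with DMSO and 4.02, 4.37, 5.48, 5.65 and 6.03 with BaP. The 92 tags were thus highest in BaP transfection 2 and DMSO transfection 1, and the 244 tags in BaP and DMSO transfection 5, where the 92 were at or near their lowest. The share of counts held by the 244 tags ran from 3.62% to 12.6% over the A549 libraries, and its part in the movement of the 92 tags was not tested. The groups were cut from the same A549 means, so no test of this difference was made. In H520 the SDs of the 92 tags, with a median of 0.0956, were like those of all tags, with a median of 0.101.

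The plasmids of the set were also more frequent in the A549 input than in the H520 input. In TPM, the A549 input held 1.93 times as much of the median member as the H520 input, with a range of 0.900 to 2.99, and 91 of the 92 had a ratio above 1. Among all 211385 tags the median ratio was 0.993 and 48.7% had a ratio above 1. Of the 244 tags strong in both lines, all 244 had a ratio above 1, with a median of 2.31. Each line has a single input library, so this difference has no replicate check. The excess in the A549 input had a median of 2.19% of the mean RNA level of the same tag in A549, with quartiles of 1.91% and 2.47%. What gave this excess was not tested.

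The input used as denominator changed the levels in both lines alike. An input used for both lines cancels in the difference between them. That difference is therefore the same for a tag against either input, apart from centring, and shows nothing about robustness. Against the A549 input the A549 activity of the 92 tags had a median of 4.55 and ran from 3.72 to 4.93, and 89 were still at 4 or more. The H520 activity had a median of -1.20. With each line's own input, the medians were 4.55 in A549 and -0.31 in H520, so the lines stood closer than against 1 shared input. On that basis 89 of the 92 met both limits. The A549 values were also closer together, with an SD over the 92 tags of 0.208 against the A549 input and 0.400 against the H520 input. The A549 activity against the H520 input had a Pearson's r with the log2 ratio of the inputs of 0.75 over the 92 tags, and 0.16 against the A549 input. Each of these pairs shares an input library, and the values describe the set only. The member acttcgggtcgtGGC, lowest against the H520 input at 4.11, was the only one with a ratio below 1, and read 4.23 against the A549 input.

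The H520 activity, one of the values that chose the set, is given here by base composition as a description. In all 211385 tags, H520 activity rose with the share of G and C in the 12 variable bases, from a median of -0.32 at 16.7% to 0.14 at 83.3%. The 92 tags had a median GC share of 50%, the same as all tags, and ran from 16.7% to 75%. At 25% GC the 7 members had a median H520 activity of -0.60 and all tags -0.22. At 50% GC the 23 members stood at -0.28 and all tags at 0.03, and at 66.7% GC the 7 members stood at -0.16 and all tags at 0.10. Of the 92 tags, 91 lay below the median of all tags with the same GC share, by a median of 0.30 log2 units; aacgactactgcGGC was the exception. The rule bounds these H520 activities at 0.5, a limit that 204336 of all tags also met, so nothing is read from this position. Pearson's r between H520 activity and GC share was 0.62 over the 92 tags and 0.29 over all tags, and that between A549 activity and GC share was 0.04 over the 92.

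Apart from the constant bases, the tags of the set did not resemble each other. Counted as substitutions in the 12 variable bases, the nearest other member was 3 to 6 away, with a median of 5, and none was within 2. The 6 members at 3 substitutions form pairs: agatcgtttagcGGC (6.0 in A549) with cgatcgtctaacGGC (5.63), cagcgttaccagGGC (5.74) with taccgttaccaaGGC (5.42), and gttgagatcctcGGC (5.90) with gttaaactcctcGGC (5.22). When insertions and deletions are counted too, 1 pair was 2 edits apart, acgacctactgcGGC and aacgactactgcGGC, which stand at opposite ends of the set with 6.09 and 4.36. These pairs were chosen after their values were seen, except for tags named by the rule.

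With 1 exception given below, tags that differ from a member by a single base did not share its strong activity. Of the 92 members, 90 had such a neighbour, and 376 neighbours had at least 100 counts in both inputs. The median A549 activity of these 376 was 0.06, with quartiles of -0.15 and 0.29, and 8 of them (2.13%) were at 1 or more, against 1.80% of all tags. For acgacctactgcGGC, 5 neighbours could be measured. With positions counted from 1 at the 5′ end of the tag, the changes T7A, T10C, G11A, C12A and A1C had A549 activities of -0.22, -0.03, -0.13, 0.46 and 0.27, beside 6.09 for the member. One neighbour in the 376 was itself strong: gcgacggttagtGGC, an A1G change from the member acgacggttagtGGC, had an A549 activity of 5.41. Its H520 activity was 2.33, so it was not a member, and 0 of the 376 were members. The other 27 neighbours had under 100 counts in an input. Their A549 RNA level was at most 0.768% of that of the member beside them, with a median of 0.102%, which bounds how much of a member's RNA was read as that neighbouring tag.

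Short words in the tags were compared as a description, over 64 words of 3 bases and 48 combinations of base and position, with no test. The largest excess was AGT, found in 24 members (26.1%) and in 14.5% of all tags. The largest deficit was TCG, in 20 members (21.7%) and 31.1% of all tags. An A at position 5 was in 34 members (37.0%) and 24.0% of all tags. Motifs were searched on either strand of the 15 bases. The AP-1 motif TGACTCA was in 0 members and in 0.0449% of all tags. For the TATA box, spelled TATAAA, the counts were 0 members and 0.314% of all tags, and for the AU-rich element ATTTA they were 0 and 2.12%. The core of the xenobiotic response element, which the aryl hydrocarbon receptor binds, is spelled GCGTG and was in 0 members and 0.568% of all tags. The polyadenylation signal AATAAA was in no tag at all. Neither the E-box with its letters CACGTG nor, among RNA-binding motifs, the Pumilio motif TGTANATA was in any tag. The GC box GGGCGG was in 1 member, tgcagtacgggcGGC, where it takes in constant bases, and in 0.304% of all tags. Of the 64 words 4 and any run of 4 equal bases were found in none of the variable bases of all 211385 tags, so several motifs could not occur there. These are letters of the tags; the cloned fragments were not analysed here.

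BaP left the set without a change that passed the test in either line. In A549, edgeR's quasi-likelihood test with Benjamini-Hochberg adjustment called 0 of 223066 tags (0%) at an adjusted p below 0.05, and DESeq2 also called 0. An unadjusted p below 0.05 was reached by 5805 tags (2.60%) and by 0 of the 92 members. The log2 fold changes of the members ran from -0.07 to 0.05 with a median of -0.01, and 28 were positive and 64 negative. The median over all tags was 0.00. The standard errors were 0.085 to 0.163, so a change of that order in a single tag was not resolved.

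The members with the smallest p in A549 were aataactgatagGGC at -0.07 (SE 0.104), tatctagttaccGGC at -0.05 and tataagtttacgGGC at -0.07, all with an adjusted p of 0.9999 in edgeR. For aataactgatagGGC the A549 activities came to 4.88, 4.53, 4.60, 4.90 and 4.57 with DMSO and 4.60, 4.75, 4.50, 4.93 and 4.36 with BaP. The 2 groups overlapped through most of their range. The sign of the median over the members turned when single libraries were left out, from -0.07 without BaP transfection 2 to 0.06 without BaP transfection 5, and was also positive without DMSO transfections 1 or 4 or BaP transfection 3. No member passed the test in any of these fits. Between transfections of the same number, the median member differed by -0.14, 0.28, 0.00, -0.01 and -0.22 between BaP and DMSO in numbers 1 to 5. In number 2 all 92 members were higher with BaP, and in number 5 all 92 were lower. The members shifted together between A549 libraries, so these counts are not 92 separate observations. The matching shares over all tags were not computed, and the numbers may not pair the libraries.

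In H520, after the longer exposure, edgeR called 0 of 223732 tags (0%), and 0 of the 92 members. With the transfection number as a block, it called 86 tags higher and 64 lower among the 223732, and again 0 members. An unadjusted p below 0.05 was reached by 10534 tags (4.71%) and by 3 of the 92 members, a share near the background. DESeq2 called 11 tags, 5 higher and 6 lower, among the 19911 that its own filter kept, of which 9 were members and 0 members were called. The log2 fold changes of the 92 members ran from -0.21 to 0.32 with a median of 0.00, and 44 were positive and 48 negative.

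The smallest p was that of tgcagtacgggcGGC, at -0.14 (SE 0.048, adjusted p = 0.998 in edgeR). In H520 its activity read -0.04, -0.11, -0.10, -0.08 and -0.01 with DMSO and -0.19, -0.15, -0.22, -0.20 and -0.22 with BaP, so the BaP values were all lower. Such a separation in H520 was seen for 1 of the 92 members. The share over all tags was not computed, so nothing is read from it. For tatagtcgattgGGC the fold change was 0.21 (adjusted p = 0.998, edgeR), from -0.72, -0.61, -0.66, -0.78 and -0.92 with DMSO to -0.55, -0.48, -0.61, -0.56 and -0.61 with BaP. These groups met at about -0.61. For ggccttaacgttGGC it was -0.13 (adjusted p = 0.998, edgeR), from 0.02, -0.22, -0.09, -0.13 and -0.15 with DMSO to -0.27, -0.20, -0.26, -0.25 and -0.18 with BaP, with overlap. None of the 3 passed the correction.

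The difference of the BaP responses, H520 minus A549, was tested as the interaction term over all 20 RNA libraries. edgeR called 0 of 222669 tags (0%) and DESeq2 0. An unadjusted p below 0.05 was reached by 7693 tags (3.45%) and by 0 of the 92 members, whose differences had a median of 0.00 and ran from -0.20 to 0.34. The members with the smallest p were tatagtcgattgGGC, at 0.25 (SE 0.152), cgatcgtctaacGGC, at -0.20, and gatttccgaataGGC, at 0.34 (SE 0.214), each with an adjusted p of 0.9999 in edgeR. For gatttccgaataGGC the H520 libraries read -0.41, -0.35, -0.66, -0.35 and -0.31 with DMSO and 0.01, -0.29, -0.35, -0.35 and -0.21 with BaP. BaP transfection 1 was the highest and DMSO transfection 3 the lowest, and the groups overlapped between them.

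The libraries held 177.6 to 371.4 M counts. A member had at least 101 counts in the H520 input, and that denominator is the same in all 20 libraries, so counting error in it moves a tag's level in both lines alike. Reads were amplified without molecular identifiers in the labels' protocols, so counts are not independent molecules.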

How the data were processed

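Per the labels' protocols, polyadenylated RNA of transfected cells was copied into cDNA, and a short stretch with the tag was amplified and sequenced. Base calls were converted with bcl2fastq, per the submitters' processing notes. Its version and the matching of reads to tags are not given in the sources used here. A deposited file holds, per the file headers, raw counts of tags, their total over the library and TPM. The TPM equals the count per M counts of that library. The deposited counts were used as they are in the tests, and the TPM behind the activities was computed from them.

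Counts of 22 libraries were joined on the tag, with 0 where a library did not list it. The effect of BaP in a line (10 libraries) and its difference between lines (an interaction over 20 libraries) were tested by edgeR 4.0.16 in R 4.3.3: TMM, filterByExpr and a robust quasi-likelihood fit on tags with an input count of 10 or more in the line tested, or in both inputs for the interaction. P-values were Benjamini-Hochberg adjusted over all tags tested, with a threshold of 0.05. DESeq2 1.42.0, other filters and normalizations, a replicate block and left-out libraries were alternatives. The procedure was also run on simulated counts in which tags varied independently, without the shared shifts between A549 libraries. Its outcome is not reported here.

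Named tags are the 10 members highest in A549, the 5 lowest in H520, the 3 on each side of each limit and the 3 with the smallest p in each test. Other named tags were chosen after their values were seen. The members and the motif list were chosen with earlier results of these data known. Total counts were 333.5 M in the A549 input and 265.8 M in the H520 input. No interval is given for shares of counts, since reads without molecular identifiers are not independent.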

Additional observations from a re-analysis of the deposited data

Results flagged for a closer look

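In all, 116 groups of 5 libraries were checked, for the 27 named members and for the set's median activity and share of counts. Of these, 3 held a library far from the other 4, and chance alone marks about 1 in 20 such groups. The groups are not independent, since members shifted together between A549 libraries. For aacgactactgcGGC, the member with the fewest input counts, H520 BaP transfection 4 read 0.405 on the log2 activity scale while the others lay between -0.04 and 0.02. For cgatcgtctaacGGC, H520 BaP transfection 5 read -0.492, and the others lay between -0.32 and -0.27. For cggaacttgctgGGC, H520 DMSO transfection 4 read -0.109, and the others lay between -0.04 and -0.01.

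Tags outside the comparisons also gave A549 RNA. Of the 26632 tags under 100 counts in an input, 2 met both activity limits. The tag tcagaatccgatGGC had 939 counts in the A549 input and 0 in the H520 input, and a mean of 68.3 TPM in A549 RNA. Its A549 levels were 78.0, 31.1, 29.9, 78.7 and 100.8 TPM with DMSO and 32.5, 37.6, 70.2, 101.5 and 122.8 TPM with BaP, so the groups overlapped. In H520 RNA it was read in 1 of 10 libraries, with 8 counts (0.0304 TPM). With 0 counts in the H520 input, its activity rests on the pseudocount. For independent reads a 0 would allow up to 0.0113 TPM (3 counts). Reads without molecular identifiers are not independent, so this is not a firm upper limit. The tag gattcttacccgGGC had 191 and 58 counts in the inputs, a mean of 14.8 TPM in A549 RNA (11.2 to 16.9) and 0.0571 to 0.318 TPM in H520 RNA.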

How the results depend on the processing

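The number of tags meeting the limits stayed within 80 to 98 under every denominator, pseudocount, input minimum, centring and choice of libraries tried, beside 92. Of the 92, 89 remained against the A549 input, and all 92 with any transfection number left out. The median A549 activity, 5.45, was 4.55 against the A549 input, 5.00 with a pseudocount of 2 and 5.23 without centring. The median H520 activity, -0.31, was -1.20 against the A549 input, -0.34 and -0.22 with pseudocounts of 0.1 and 2, and -0.40 without centring. Leaving out single libraries gave 5.42 to 5.48 and -0.32 to -0.31. No member was called for BaP by any alternative. Over all tags, H520 calls went from 0 in edgeR to 11 in DESeq2 and to 150 (86 higher, 64 lower) with a replicate block on the transfection number, and the cause was not tested. With the replicate block in edgeR, an unadjusted p below 0.05 was reached in H520 by 13764 of 223732 tags and by 4 of the 92 members. In the interaction it was reached by 10720 of 222669 tags and by 4 of the 92 members. Neither share of members exceeded that of all tags, and A549 calls stayed at 0. Same-numbered libraries deviated together with Pearson's r above 0.1 in 3 of 5 pairs in A549 and 0 of 5 in H520. By that cutoff the numbers were not taken as pairing the samples in the main fits. However, 5 of 10 A549 and 8 of 10 H520 libraries correlated best with their own number. Whether the numbers pair the libraries was thus not settled, and the H520 counts of calls depend on it.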
